A study of Mus musculus with 9 samples.

Results

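This section follows 9 transcription factor genes of the enteroendocrine lineage, Neurog3, Neurod1, Pax4, Pax6, Isl1, Insm1, Nkx2-2, Fev and Rfx6, in intestinal epithelial cells (IECs) of the mouse. The genes were chosen by name, and each of the 9 symbols matched 1 Ensembl identifier among the 29288 genes counted. The study asked how IECs respond when natural killer T (NKT) cells are activated in vivo by α-galactosylceramide (αGalCer), a glycolipid that is displayed by the antigen-presenting molecule CD1d. From proximal small intestinal crypts of wild-type female C57BL/6J mice, IECs were sorted as live EpCAM+ cells negative for CD45, CD31 and Ter119, and RNA was sequenced in bulk. In all, 3 mice received PBS and were sampled at 18 h (control), 3 received 2 µg of αGalCer into the peritoneum and were sampled at 18 h (18h-αGal), and 3 others received the same dose and were sampled at 72 h (72h-αGal). A library holds the RNA of 1 mouse. The labels give no age, and the methods of the study give a single range of weeks for all its mice. No PBS mice were sampled at 72 h, so for that group treatment and time of sampling cannot be told apart.

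Enteroendocrine cells are scattered hormone-secreting cells of the gut epithelium that arise in the crypt from secretory progenitors. A progenitor that escapes Notch signalling can switch on Neurog3, which is expressed only briefly and commits the cell to the endocrine fate. The other 8 factors follow or accompany it, and most of them are shared with the endocrine pancreas. Neurog3 and Neurod1 are basic helix-loop-helix proteins that bind short E-box words in DNA. Pax4, Pax6, Isl1 and Nkx2-2 are homeodomain proteins, Insm1 is a zinc finger protein, Fev is an ETS factor that also marks serotonergic neurons, and Rfx6 is a winged-helix factor of the RFX family.

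In RefSeq positions of build GRCm38.p6, 4 of the 9 protein-coding genes lie on chromosome 2. These are Neurod1 (ENSMUSG00000034701, 79452637 to 79456636), Pax6 (ENSMUSG00000027168, 105668896 to 105698410), Insm1 (ENSMUSG00000068154, 146221997 to 146225020) and Nkx2-2 (ENSMUSG00000027434, 147176485 to 147195434). Neurog3 (ENSMUSG00000044312, 62133090 to 62134763) and Rfx6 (ENSMUSG00000019900, 51677760 to 51730429) lie on chromosome 10. Fev (ENSMUSG00000055197) lies on chromosome 1 from 74881501 to 74885473, Pax4 (ENSMUSG00000029706) on chromosome 6 from 28442334 to 28449340, and Isl1 (ENSMUSG00000042258) on chromosome 13 from 116298270 to 116309688.

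RefSeq promoter windows of 300 bases, 250 before and 50 after a gene start, were at hand for 7 of the genes in 8 windows. For Nkx2-2, Rfx6, Fev and a window of Pax6, that start lies inside the gene span printed above, not at its 5′ end. Pax4 and Insm1 had no entry. Below are the windows of Neurog3, the factor that opens the lineage (chr10:62132840-62133139, plus strand), of Neurod1, the only one of the 9 genes called against control (chr2:79456587-79456886, minus strand), and of Nkx2-2, the window with the most E-box words (chr2:147186353-147186652, minus strand). They run 5′ to 3′ on the strand of the gene, and capitals mark each match to the E-box word CANNTG.
Neurog3: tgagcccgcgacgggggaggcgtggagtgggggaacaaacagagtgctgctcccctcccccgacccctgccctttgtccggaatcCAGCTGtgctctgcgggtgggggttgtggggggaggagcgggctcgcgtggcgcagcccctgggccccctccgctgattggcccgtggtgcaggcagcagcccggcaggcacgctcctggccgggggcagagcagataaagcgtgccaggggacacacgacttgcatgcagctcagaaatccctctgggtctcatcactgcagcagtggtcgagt
Neurod1: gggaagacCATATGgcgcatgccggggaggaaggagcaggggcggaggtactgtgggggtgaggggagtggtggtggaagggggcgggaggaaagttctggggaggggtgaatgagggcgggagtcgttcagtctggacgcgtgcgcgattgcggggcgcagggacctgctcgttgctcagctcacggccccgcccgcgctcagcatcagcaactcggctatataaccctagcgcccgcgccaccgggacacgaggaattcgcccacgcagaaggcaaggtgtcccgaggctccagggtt
Nkx2-2: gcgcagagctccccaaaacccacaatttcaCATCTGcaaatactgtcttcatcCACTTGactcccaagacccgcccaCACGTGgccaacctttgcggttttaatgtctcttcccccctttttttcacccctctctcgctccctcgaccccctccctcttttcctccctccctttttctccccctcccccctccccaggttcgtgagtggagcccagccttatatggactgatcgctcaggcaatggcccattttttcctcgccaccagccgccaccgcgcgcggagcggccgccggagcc

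The Neurog3 window holds a single CAGCTG at position -165 from the gene start, and the Neurod1 window a single CATATG at -242. The Nkx2-2 window holds 3 words, among them CATCTG, which reads CAGATG on the other strand. A CANNTG match on either strand was found in 6 of the 8 windows (75.0%), and in 72.3% of all 32851 promoter windows of this length, so the share among these genes was near the background. The narrower word CAGATG, a subset of CANNTG, was found in 1 of the 8 windows and in 17.2% of all windows. TTCNNNGAA, the word of STAT sites in interferon-γ responses, was found in 0 of the 8 windows and in 8.3% of all. These matches describe letters in a window and are not evidence of binding.

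Library totals ranged from 8887861 to 32722293 counts. The 9 genes had between 31 reads (Pax4 in 72h-αGal replicates 1 and 2) and 1501 reads (Neurod1 in control replicate 1) in a library, and all 9 passed the filter on low counts. Control replicate 3 had the smallest library and lay at -46.15 on the second principal component of the libraries, where every other library lay at 0.01 or above. Levels below are normalised counts, that is, deposited read counts divided by 1 size factor per library. Since these are bulk samples, fewer enteroendocrine cells and less RNA per cell cannot be told apart.

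Among controls, Neurod1 stood highest of the 9 genes at 275 ± 27.5 (SD, n = 3) normalised counts per kb of annotated exon, and its lowest control library (243) was above the highest of any other member. Rfx6 followed at 126 ± 24.5 per kb and Fev at 108 ± 34.2 per kb. From Rfx6 through Fev, Insm1, Nkx2-2, Neurog3 and Pax4 (76.0 ± 24.0 per kb), the control ranges of neighbours in this order overlapped. Isl1 had 57.0 ± 6.05 per kb and lay below the range of Pax4, and Pax6 was lowest at 14.6 ± 1.93 per kb. The exon length used for Pax6 joins all its annotated transcripts (16.047 kb), which lowers its value per kb. Neurod1 and Rfx6 kept the first and second place in all 3 groups, while Fev, which came next after them in controls and at 18 h, ranked below Insm1 and Neurog3 at 72 h with 57.9 ± 7.44 per kb.

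**Figure D1:**
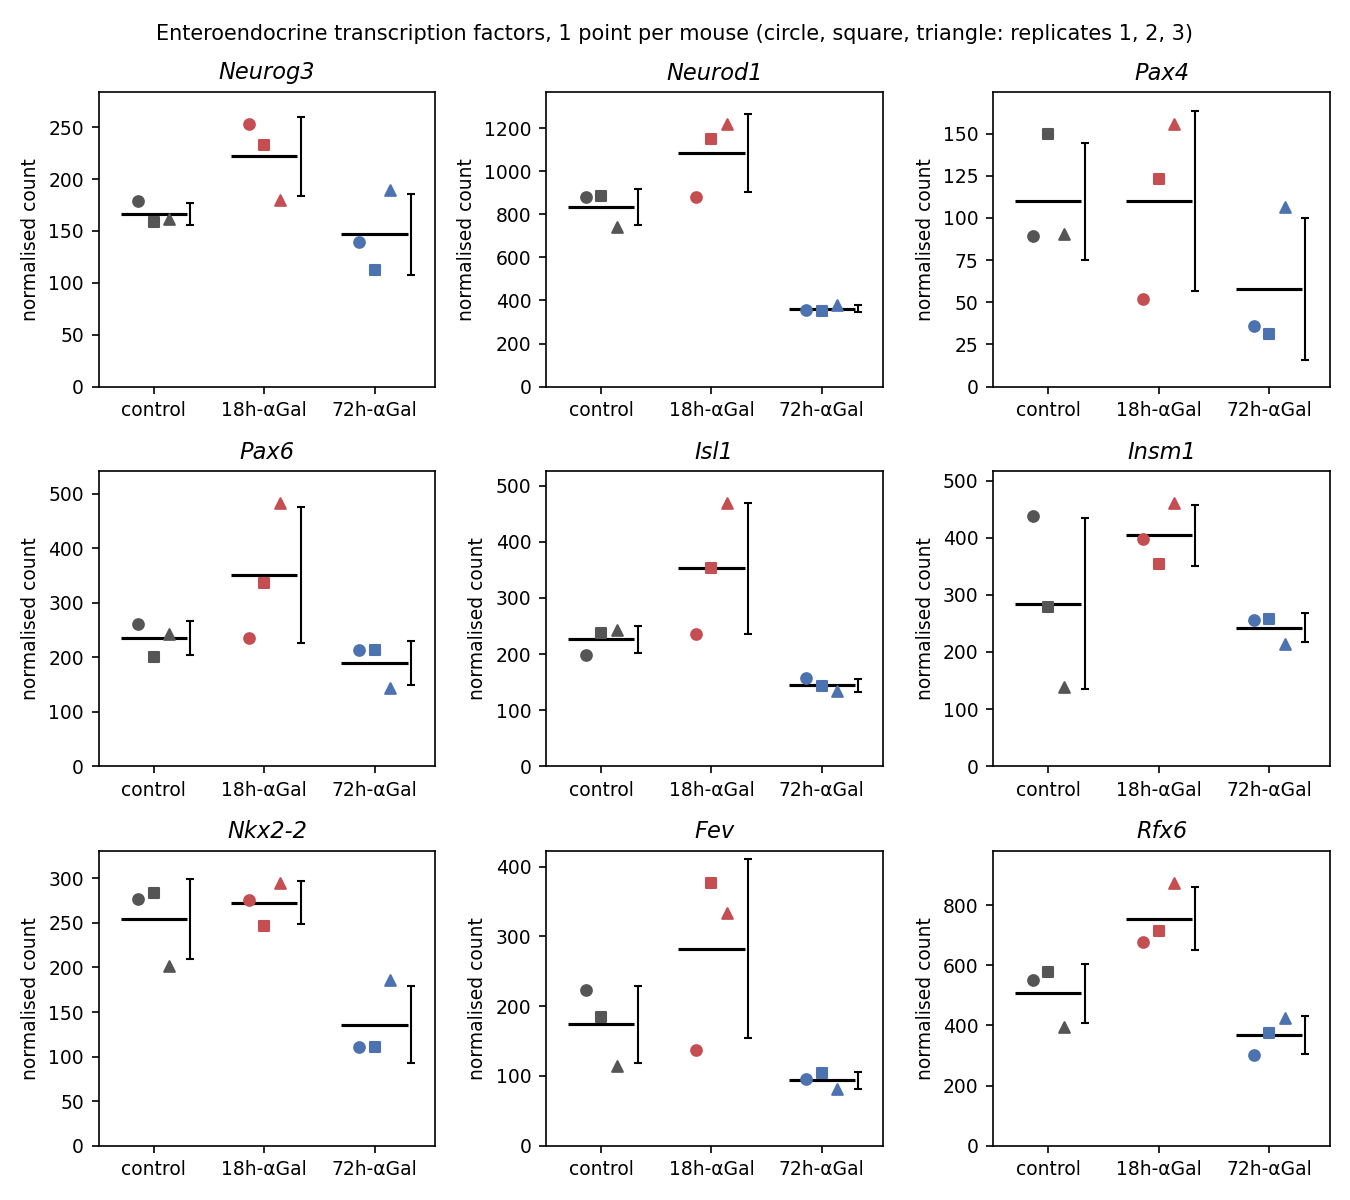
Normalised count (vertical axis, from 0) of each of the 9 genes in control, 18h-αGal and 72h-αGal mice, with 1 point per mouse, a line at the group mean and a bar of ± 1 SD (n = 3). For Neurod1 the 72h-αGal mice sit between 353 and 379.7, below all control and 18h-αGal mice, whereas for Neurog3 the 72h-αGal mice overlap the controls.

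At 18 h after αGalCer, none of the 9 genes was called against control, although 8 of the 9 had a fold change above 0. The median log2 fold change of the members was 0.48, against -0.03 over all 18933 genes tested. With edgeR (quasi-likelihood test, adjusted over all genes after Benjamini and Hochberg), 0 members passed an adjusted p of 0.05, where 5.96% of all genes did, and DESeq2 also called 0. An unadjusted p under 0.05 was reached by 3 members, Neurod1, Isl1 and Rfx6, all of them higher, where 10.5% of all genes were higher at that level.

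Rfx6, which acts in the differentiation of endocrine progenitors, came nearest to a call at 18 h. It had 550.3, 576 and 395 normalised counts in control replicates 1, 2 and 3, and 676, 714 and 875 in the 18h-αGal mice. The groups did not overlap, and the difference on the log2 scale was 0.57 ± 0.20 (SE, adjusted p of 0.106). Neurog3 was the other member whose libraries did not overlap, with 178.5, 159 and 162 in controls and 253, 233 and 179.4 at 18 h (log2 fold change 0.43 ± 0.27, adjusted p of 0.417). For Neurog3 the lowest 18h-αGal mouse lay just above the highest control. Libraries were higher without overlap for 2 of the 9 members and for 11.5% of all genes, so this count was not far from the background.

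Isl1, a LIM-homeodomain factor, had 199, 237 and 242 normalised counts in controls and 236, 353 and 469 at 18 h. Pax6, which activates several gut hormone genes, had 261, 200.3 and 242 in controls and 235, 336 and 483 at 18 h. Fev had 223, 185 and 114 in controls and 137, 377 and 334 at 18 h. In each of these 3 genes, 18h-αGal replicate 1 lay within the range of the controls and the other two 18h-αGal mice lay above it. Their log2 fold changes were 0.65 ± 0.26, 0.58 ± 0.27 and 0.68 ± 0.36, with adjusted p of 0.16, 0.244 and 0.301.

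Insm1 spread widely among controls, with 438, 278 and 138 normalised counts, and had 398, 354 and 461 at 18 h. The low control was replicate 3, the smallest library, with 58 reads of this gene. The log2 fold change of Insm1 was 0.48 ± 0.31. Nkx2-2 and Pax4 were the flattest at 18 h, with log2 fold changes of 0.10 ± 0.26 and -0.01 ± 0.50, and the intervals of ± 2 SE reached from -0.43 to 0.63 and from -1.02 to 1.0. The sign turned for Pax4 without the filter on low counts (0.0010), without control replicate 2 (0.29) and without 18h-αGal replicate 1 (0.34), and for Nkx2-2 without control replicate 3 (-0.04).

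At 72 h, all 9 genes had a fold change below 0 against control, and Neurod1 was called. The median log2 fold change of the members was -0.63, against 0.0022 over all genes. Of the 9 members 1 passed the adjusted threshold, where 0.0264% of all genes did, that is, 5 genes. An unadjusted p under 0.05 was reached by 5 members (Neurod1, Isl1, Nkx2-2, Fev and Rfx6), all lower, where 3.58% of all genes were lower at that level. Libraries were lower without overlap for 4 members (Neurod1, Isl1, Nkx2-2 and Fev), where 6.3% of all genes were.

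Neurod1, a direct target of Neurog3 in endocrine progenitors, had 882, 887 and 739 normalised counts in control replicates 1, 2 and 3, and 356, 353 and 379.7 in the 72h-αGal mice. The mean fell from 836 ± 83.6 (SD, n = 3) to 363 ± 14.7 (n = 3), with no overlap between the groups. This was a 2.28-fold lower level, or -1.19 ± 0.16 (SE) on the log2 scale, and edgeR's adjusted p was 0.017. Leaving out single libraries moved this value between -1.27 and -1.14. The call was lost without control replicate 1 (adjusted p of 0.194), control replicate 2 (0.0715), or 72h-αGal replicate 1 (0.153), 2 (0.1) or 3 (0.0925). It was also lost with a replicate block, that is, a term for replicate number in edgeR's fit (adjusted p of 0.0732). Some 6.71% of the exon length of Neurod1 is shared with Cerkl on the same strand, but Cerkl had at most 52 reads in any library.

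**Figure D2:**
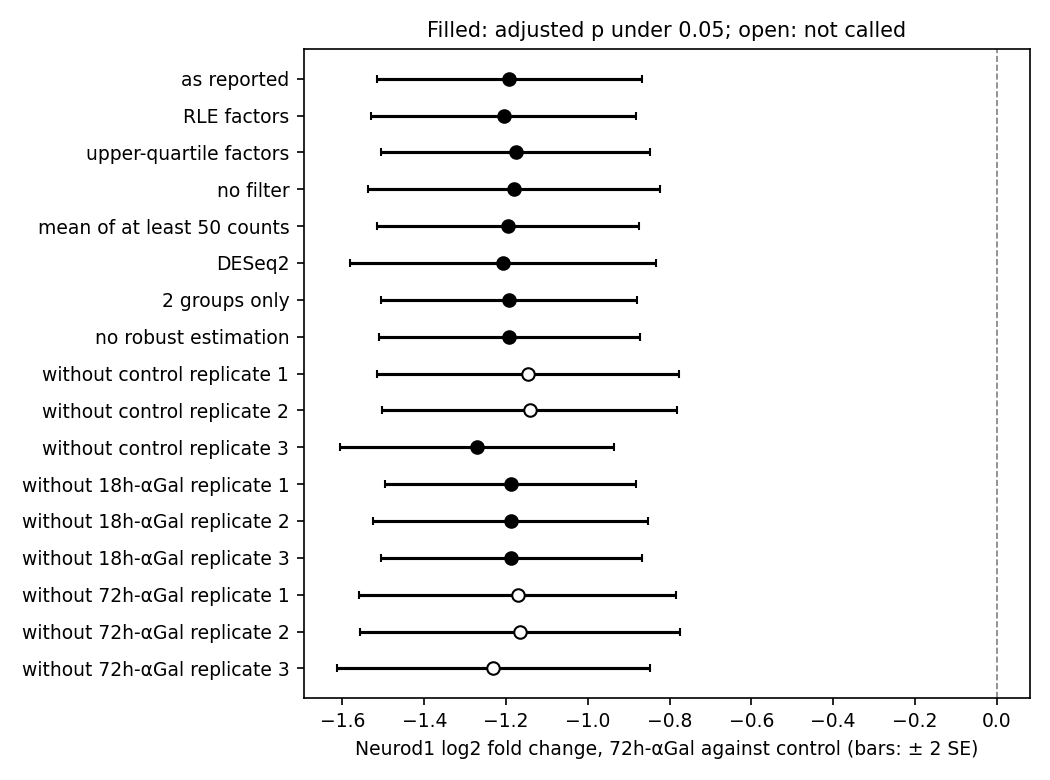
Log2 fold change of Neurod1, 72h-αGal against control (horizontal axis, bars of ± 2 SE), as reported and under the alternative settings other than the replicate block (vertical axis). The value stays between -1.27 and -1.14, and points are open where the adjusted p was 0.05 or above, which among the settings drawn are 5 of the fits that leave out a control or 72h-αGal mouse. The replicate block, not drawn, also lost the call (adjusted p of 0.0732 in edgeR's fit).

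The 3 other members without overlap at 72 h did not pass the adjusted threshold. Nkx2-2 had 277, 284 and 202 normalised counts in controls and 111.2, 110.9 and 185 at 72 h (log2 fold change -0.89 ± 0.27, adjusted p of 0.77). Fev went from 174 ± 55.4 to 93.6 ± 12.0 (-0.90 ± 0.36, adjusted p of 0.826), and Isl1 from 226 ± 24.0 to 144 ± 11.6 (-0.63 ± 0.26, adjusted p of 0.826). In Nkx2-2 and Pax4, 72h-αGal replicate 3 lay well above the other two. Pax4 had 35.9, 31.3 and 107 normalised counts at 72 h against 89.3, 149.97 and 90.3 in controls, which is -0.89 ± 0.51 on the log2 scale.

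Neurog3 itself had the value nearest to 0 of the 9 genes at 72 h. It had 139, 112 and 189 normalised counts in 72h-αGal mice, which spanned the controls (159 to 178.5). The log2 fold change was -0.16 ± 0.28, with a ± 2 SE interval from -0.71 to 0.39, and it was 0.0034 without 72h-αGal replicate 2. Insm1 (-0.25 ± 0.31, or 0.21 without control replicate 1) and Pax6 (-0.29 ± 0.28) also overlapped the controls, and Rfx6 had -0.46 ± 0.20 with an adjusted p of 0.826. Exons of Fam241b on the opposite strand cover 41.8% of the exon length of Neurog3, and Elp4 covers 21.1% of that of Pax6. The long noncoding RNA genes Nkx2-2os and Gm54165, not among the genes counted, cover 12.2% of Nkx2-2 and 6.97% of Neurod1 on the opposite strand. The strand setting of the counting was not stated, so reads of these pairs may not be separable. Fam241b had log2 fold changes of 0.23 ± 0.29 at 18 h, -0.46 ± 0.29 at 72 h and -0.69 ± 0.29 between the time points, the last near that of Neurog3 (-0.59 ± 0.27). Elp4 had 0.57 ± 0.35, 0.60 ± 0.35 and 0.02 ± 0.34 in the same order, of which the value at 18 h was near that of Pax6 (0.58 ± 0.27). Neither gene was called in any of the 3 comparisons.

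**Figure D3:**
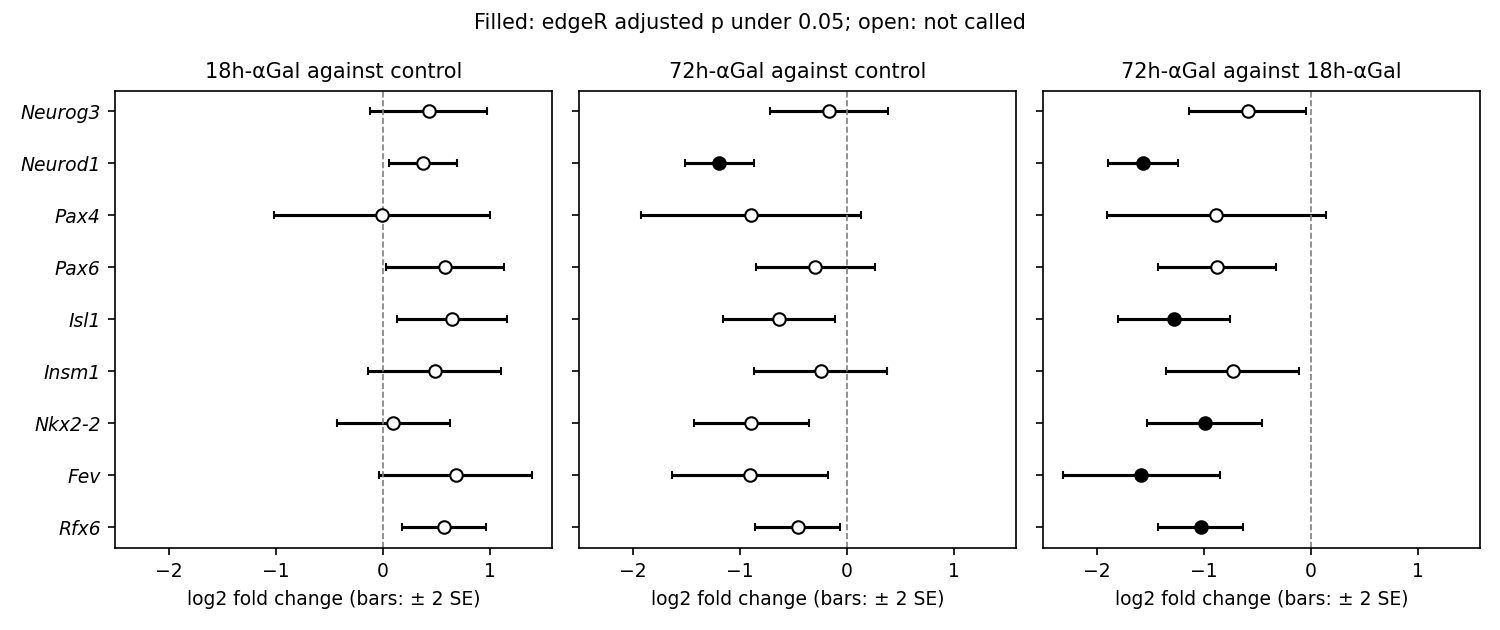
Log2 fold change (horizontal axis, bars of ± 2 SE) of each gene (vertical axis) in the 3 comparisons, with filled points where edgeR's adjusted p was under 0.05. No point is filled at 18 h against control, Neurod1 alone is filled at 72 h against control (-1.19), and 5 genes are filled between the time points, all below 0.

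Because counts of both genes come from the same library, Neurod1 reads per Neurog3 read do not depend on the scaling of libraries. This ratio was looked at after the levels had been seen. It was 4.94, 5.59 and 4.57 in controls, 3.46, 4.94 and 6.81 at 18 h, and 2.56, 3.15 and 2.01 at 72 h. All 72h-αGal mice lay below all mice of the other groups. The mean went from 5.04 ± 0.52 (SD, n = 3) in controls to 2.57 ± 0.57 (n = 3) at 72 h, and the exact two-sided permutation test gave p = 0.1, below which groups of 3 mice cannot go. At 18 h the mean ratio was 5.07 ± 1.68. Neurod1 also took a smaller share of the reads of all 9 genes at 72 h (20.4% to 21.4% in a library) than in controls (28.5% to 31.8%) or at 18 h (27.3% to 29.6%). Nkx2-2 reads per Neurog3 read were likewise lower at 72 h without overlap (0.80, 0.99 and 0.98). They were 1.55, 1.79 and 1.25 in controls and 1.09, 1.06 and 1.65 at 18 h. The ratios of the remaining members overlapped. Reads of Neurog3, the denominator, may not be separable from those of Fam241b, as said above.

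**Figure D4:**
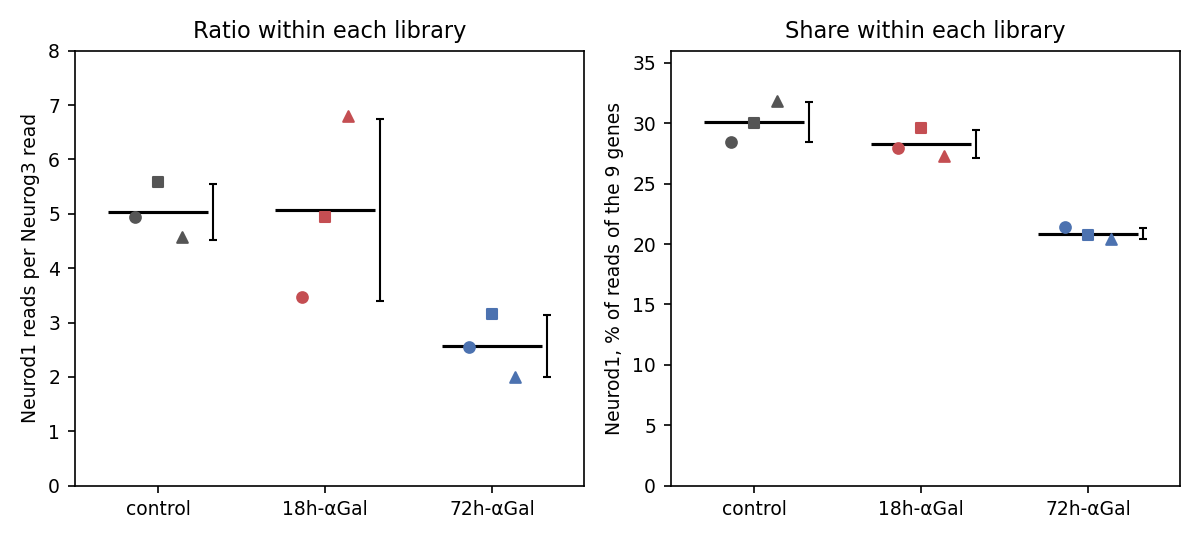
Neurod1 reads per Neurog3 read (left, vertical axis) and Neurod1 as a percentage of the reads of all 9 genes (right, vertical axis) in each mouse, with group means and ± 1 SD (n = 3). On both axes the 72h-αGal mice lie below the other groups, at 2.01 to 3.15 and at 20.4% to 21.4%.

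The direct comparison of the 2 time points gave the most calls. All 9 genes were lower at 72 h than at 18 h, with a median log2 fold change of -0.99, against 0.05 over all genes. Of the 9 members, 5 were called and all 5 were lower (Neurod1, Isl1, Nkx2-2, Fev and Rfx6), where 10.2% of all genes were called and 6.04% were called lower. An unadjusted p under 0.05 was reached by 8 members, where 12.8% of all genes were lower at that level. Libraries were lower without overlap for 7 members, where 16.3% of all genes were. Leaving out 18h-αGal replicate 2 or 72h-αGal replicate 1 left 3 members called, which were Neurod1, Isl1 and Rfx6 in both cases. Without control replicate 3, 7 were called. Comparisons with control and this one share libraries, so they are not independent of each other.

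Neurod1 went from 878, 1149.8 and 1221 normalised counts at 18 h to 356, 353 and 379.7 at 72 h (log2 fold change -1.57 ± 0.16 SE, adjusted p of 7.76e-05). Fev, which is linked to the serotonin-producing enterochromaffin lineage, went from 137, 377 and 334 to 95.0, 104.9 and 80.9, with -1.58 ± 0.37 and an adjusted p of 0.0132. Isl1 went from 236, 353 and 469 to 156, 143 and 133, with -1.28 ± 0.26 and an adjusted p of 0.00686. In each of these 3 genes the lowest 18h-αGal mouse, replicate 1, still lay above the highest 72h-αGal mouse.

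Rfx6 had 755 ± 106 normalised counts (SD, n = 3) at 18 h and 367 ± 63.0 (n = 3) at 72 h, a change of -1.03 ± 0.20 on the log2 scale with edgeR's adjusted p at 0.0051. Nkx2-2 went from 273 ± 24.3 to 136 ± 42.9, with -0.99 ± 0.27 and an adjusted p of 0.0297. Each leave-one-out fit that dropped an 18h-αGal mouse, and those that dropped 72h-αGal replicate 1 or 2, lost the call of Nkx2-2 with its direction kept. The call of Fev was lost without 18h-αGal replicate 2 (adjusted p of 0.0773), 72h-αGal replicate 1 (0.0504) or replicate 3 (0.0675).

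The 4 members that were not called between the time points were Pax6 (-0.88 ± 0.28, adjusted p of 0.0572), Insm1 (-0.73 ± 0.31, 0.162), Neurog3 (-0.59 ± 0.27, 0.202) and Pax4 (-0.88 ± 0.51, 0.319). Pax6 and Insm1 libraries did not overlap between the time points. DESeq2 called Pax6 (adjusted p of 0.0338), and so did edgeR without the filter (0.026) or without 18h-αGal replicate 1 (0.0269). Insm1 was called by edgeR with 2 groups only (0.032), and both genes were called without control replicate 3. Pax4 had the largest standard error of the 9 genes and the fewest reads.

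Genes listed as upstream in the choice of a secretory fate had a median log2 fold change of 0.50 between the time points, above 0 where that of the members was below it. The list pools genes that favour this fate with genes that oppose it. Of 12 such genes tested (Notch receptors, ligands and targets, and secretory regulators), 0 were called at 18 h against control, 5 had an unadjusted p under 0.05, all lower, and DESeq2 called 2. At 72 h against control 0 were called by edgeR, 0 had an unadjusted p under 0.05, and DESeq2 called 0. Between the time points 3 were called, all higher at 72 h. Hes1, the Notch target that represses the secretory fate, had 1016 ± 139.8 normalised counts (SD, n = 3) at 18 h and 1747 ± 76.8 (n = 3) at 72 h, or 0.79 ± 0.16 on the log2 scale (adjusted p of 0.00595, edgeR). The receptor gene Notch2 had 0.68 ± 0.20 (0.0477) and Rbpj, which encodes the DNA-binding partner of activated Notch, 0.49 ± 0.14 (0.0326). The number called fell to 1 without 18h-αGal replicate 2 or 3 or 72h-αGal replicate 1 or 3, and rose to 6 without control replicate 3.

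Of 17 other enteroendocrine transcription factor genes tested, edgeR called 0 at 18 h (4 at an unadjusted p under 0.05, 3 of them higher) and 0 at 72 h against control (3 at an unadjusted p under 0.05, all lower). DESeq2 also called 0 in both. Between the time points 3 were called lower at 72 h. Lmx1a, a LIM-homeodomain factor of the enterochromaffin lineage, had 228 ± 139.6 normalised counts (SD, n = 3) at 18 h and 42.1 ± 21.2 (n = 3) at 72 h, or -2.43 ± 0.48 on the log2 scale (adjusted p of 0.00618, edgeR). Prox1, a homeodomain factor, had -0.90 ± 0.23 (0.0218). The number called fell to 1 without 18h-αGal replicate 2 or 3 or 72h-αGal replicate 1 or 3.

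Of the 23 enteroendocrine product genes tested, 21 had a fold change above 0 at 18 h and 23 below 0 at 72 h against control. Both exceptions at 18 h, Ddc (-0.25 ± 0.21) and Nts (-0.29 ± 1.30), were not called. The list holds genes for hormones, granins, their processing enzymes, and the synthesis and transport of serotonin. Of these genes, 6 were called higher at 18 h (Chga, Chgb, Cpe, Tac1, Sst and Gcg) and 4 lower at 72 h against control (Chga, Chgb, Tph1 and Tac1). Between the time points 12 of the 23 were called, all lower at 72 h. The summed level of these genes also counts Gal, which was not tested. It was 14187 to 18701 normalised counts in controls, 19732 to 32313 at 18 h and 7344 to 10765 at 72 h, without overlap between any 2 groups. The summed level of the 9 transcription factors was 2325 to 3098 in controls, 3143 to 4473 at 18 h and 1662 to 1858 at 72 h, also without overlap. The lowest 18h-αGal sum lay just above the highest control, and no member was called at 18 h. Neurod1 and Rfx6, the members with the most reads, weigh most in this sum. The 6 calls at 18 h fell to 0 without control replicate 2, to 1 without 18h-αGal replicate 2, to 2 without control replicate 1 and to 3 without 18h-αGal replicate 3 or 72h-αGal replicate 2. The 4 at 72 h fell to 0 without control replicate 1 or 72h-αGal replicate 1 or 3, and to 1 without control replicate 2 or 72h-αGal replicate 2.

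Markers of other cells were measured beside these genes. Summed stem cell markers (10 genes) had 46410 to 88960 normalised counts in controls, 14350 to 44170 at 18 h and 60390 to 93770 at 72 h, so that the 18h-αGal mice lay below all others. Of the 10, edgeR called 1 lower at 18 h (2 without control replicate 3 or 18h-αGal replicate 3). DESeq2 called 3 there, all lower, and 4 had an unadjusted p under 0.05, all lower. Tuft cell markers had 2 of 6 tested genes called higher at 18 h and goblet cell markers 1 of 8 (Agr2). The tuft cell calls fell to 0 without 18h-αGal replicate 2 or 3, and to 1 without any of the 3 controls or 72h-αGal replicate 1. They also fell to 1 with 2 groups only or the replicate block. The goblet cell call was lost without any of the 3 controls, 18h-αGal replicate 2 or 72h-αGal replicate 1. It was also lost with upper-quartile factors, 2 groups only, the replicate block or no robust estimation. Leaving out 18h-αGal replicate 1 gave 2 goblet cell markers called lower. Over all libraries edgeR and DESeq2 called 0 of 10 enterocyte and 0 of 8 Paneth cell markers against control at either time. An unadjusted p under 0.05 was reached there by 1 enterocyte marker at each time and by 0 Paneth cell markers. Between the time points, where 5 members were called, 2 stem cell markers were called higher at 72 h (Axin2 and Rnf43), with 1 called without 18h-αGal replicate 2 or 72h-αGal replicate 1 or 3. DESeq2 called 5 stem cell markers there, all higher, and 7 had an unadjusted p under 0.05 in edgeR's fit, all higher. Tuft cell markers had 2 called lower there (Trpm5 and Avil), with 0 called without 18h-αGal replicate 2 and 1 without 18h-αGal replicate 3 or 72h-αGal replicate 1 or 2. There edgeR called 0 enterocyte markers with 4 lower at an unadjusted p under 0.05, and DESeq2 called 2, both lower. Without control replicate 2 edgeR called 2, and without control replicate 3 it called 4, all lower. With 2 groups only edgeR called 4, with no robust estimation 3 and with a mean of at least 50 counts 2, all lower. It called 0 goblet cell markers there (1 at an unadjusted p under 0.05, lower), but 3 higher without 18h-αGal replicate 1. Neither tool called a Paneth cell marker there, and 0 had an unadjusted p under 0.05. Summed enterocyte markers lay at 93900 to 232500 in controls, 133500 to 213200 at 18 h and 59860 to 116200 at 72 h. At 72 h against control all 10 enterocyte markers had a fold change below 0 (median log2 fold change -0.76). Between the time points 9 of the 10 did (-0.79), and at 18 h 5 of the 10 did (-0.07). Of tuft cell markers, 6 of 6 were above 0 at 18 h (0.78) and 5 of 6 below 0 between the time points (-0.80). At 72 h against control 3 of the 6 were below 0 (0.0024). The part of these cell markers in the values of the 9 genes was not tested.

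Markers of cells outside the intestinal epithelium were low beside the summed level of the 9 genes. In controls the means of single members ran from 110 (Pax4) to 836 (Neurod1) normalised counts, so not every marker sum was low beside each gene. Of 14 leukocyte markers 6 had enough counts to be tested, and all 14 summed to 138 to 182 normalised counts in controls, 134 to 167 at 18 h and 105 to 273 at 72 h. Cd3e, Nkg7 and Ms4a1 were at 0 in all controls, Cd3g, Cd4, Nkg7 and Gzmb in all 18h-αGal mice and Cd4 in all 72h-αGal mice. The endocrine pancreas expresses most of the 9 factors, and the 7 pancreatic markers with counts summed to 87.3 to 106 in controls, 53.6 to 193 at 18 h and 60.2 to 125 at 72 h. Amy2b was at 0 in all 72h-αGal mice, and Ins1, Ins2 and Ppy matched no identifier among the genes counted. Iapp is both in this list and among the product genes above, so this sum is not one of pancreatic markers only. Its mean was 28.7 in controls, 71.9 at 18 h and 18.9 at 72 h. The 7 enteric neuron and glia markers with counts summed to 201 to 263, 173 to 255 and 108 to 209 in the same order, with Uchl1 at 0 in all 72h-αGal mice. No gene of these 3 lists was called in any comparison by edgeR as fitted here, while without the filter on low counts edgeR called 1 leukocyte gene higher at 72 h than at 18 h, and DESeq2 called 1 pancreatic gene at 18 h and 1 between the time points. The unadjusted p was under 0.05 for 0 leukocyte genes in each comparison, for 1, 0 and 2 pancreatic genes at 18 h, at 72 h and between the time points, and for 1 neuron or glia gene in each.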

How the data were processed

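The authors prepared ribosomal RNA-depleted directional libraries and deposited raw read counts per gene and a normalised signal. The submitters' processing notes name HISAT2, featureCounts (Subread), DESeq2 1.42.0 and the builds GRCm38 and mm10, whereas the study's methods name GRCm39. The strand setting and the annotation release are not given in the sources used here. In the deposited normalised signal, each count is divided by the size factor of its library, and these factors matched the median-of-ratios factors of DESeq2 with a largest relative difference of 2.11e-16. It carries no correction for gene length.

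Of 29288 identifiers, 28480 matched GENCODE vM39, from which symbols, exon lengths and exon overlaps were taken; 808 did not match (1.56% of counts). Printed positions and promoters are RefSeq, GRCm38.p6. Raw counts were tested with edgeR 4.0.16 (R 4.3.3): filterByExpr (18933 genes kept), TMM scaling and a robust quasi-likelihood fit of 3 group means over all 9 libraries. Benjamini-Hochberg adjustment covered every gene tested, and a gene was called at an adjusted p under 0.05. Standard errors came from the F statistic. The script was tested on simulated counts. Libraries held 8887861 to 32722293 counts, and 3 reads equal 0.0917 to 0.338 CPM. Such a floor covers counting error only.

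The 9 genes and all gene lists were chosen with earlier results of these data known. The lists were written from general knowledge: upstream secretory fate genes, other enteroendocrine transcription factors, enteroendocrine products, and markers of stem, enterocyte, goblet, Paneth, tuft, leukocyte, pancreatic, and enteric neuron and glia cells. All 9 members are named in every comparison, list genes were to be named where called (or the 2 of highest mean where none was), and genes of like pattern are the 3 with the highest Pearson r over libraries (mean of at least 50 counts). Some genes picked by this rule go unnamed in the text. The result of a listed gene is not reported here. The ratio of Neurod1 to Neurog3 was chosen after values were seen. Alternatives were RLE and upper-quartile factors, no filter, a mean of at least 50 counts, DESeq2, 2 groups only, a replicate block, no robust estimation, CPM on TMM-scaled totals for levels, and leaving out each library.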

Additional observations from a re-analysis of the deposited data

Results flagged for a closer look

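For 5 of the 9 genes the effect at 72 h differed from that at 18 h against the same controls, as tested by the direct contrast of the time points in edgeR's fit. The log2 difference was -1.57 for Neurod1, -1.58 for Fev, -1.28 for Isl1, -1.03 for Rfx6 and -0.99 for Nkx2-2. In all 5 genes, and also in Neurog3, Pax6 and Insm1, the fold change against control was above 0 at 18 h and below 0 at 72 h. For Nkx2-2 it was 0.10 ± 0.26 (SE) at 18 h, and it turned to -0.04 without control replicate 3, while the 72 h value was -0.89 ± 0.27. For Rfx6 the 2 values were of like size, 0.57 ± 0.20 and -0.46 ± 0.20. Groups of 3 mice are too small for a check for outlying libraries.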

How the results depend on the processing

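For the 27 fold changes of the 9 genes, the alternatives gave 459 values, of which 432 kept direction and call, 15 lost a call, 6 gained one and 6 changed sign. The sign changes were those of Pax4 at 18 h (0.0010 without the filter, 0.29 without control replicate 2, 0.34 without 18h-αGal replicate 1), Nkx2-2 at 18 h (-0.040 without control replicate 3), Insm1 at 72 h (0.21 without control replicate 1) and Neurog3 at 72 h (0.0034 without 72h-αGal replicate 2), none of them called. Without single libraries these 4 ran from -0.33 to 0.34, -0.040 to 0.19, -0.55 to 0.21 and -0.40 to 0.0034. Member calls stayed at 0 at 18 h in every setting. Leaving out a library gave 0 to 1 at 72 h and 3 to 7 between the time points.

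Replicate numbers recur in the 3 groups, and the labels do not say whether they pair the samples. The correlation of same-numbered deviations from group means ran from -0.15 to 0.11. It was positive between control and 18h-αGal and negative for the other pairs of groups. Not every sample correlated best with its own number, but correlations this weak cannot exclude a pairing. With the replicate block, member calls went from 1 to 0 at 72 h (Neurod1 -1.20 ± 0.17, adjusted p of 0.0732) and from 5 to 4 between the time points. It left 1 of all genes called at 72 h, 2 enteroendocrine products at 18 h and 1 at 72 h, and 1 upstream gene between the time points.

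Of all genes, 593 were called at 18 h with 2 groups only (432 to 1556 without 1 library). At 72 h 13 were called without the filter, 3 with a mean of at least 50 counts or without robust estimation, and 30 by DESeq2 (0 to 20 without 1 library, where 0 came without control replicate 1 or 72h-αGal replicate 1 or 3, and 20 without control replicate 3). Between the time points leaving out a library gave 831 to 2593. Enteroendocrine products at 18 h numbered 3 with upper-quartile factors, 2 groups only or no robust estimation (0 to 7 without 1 library), and at 72 h 2 with a mean of at least 50 counts, 2 groups only or no robust estimation (0 to 4). Upstream genes called at 18 h numbered 1 with upper-quartile factors, no filter or a mean of at least 50 counts, and 2 by DESeq2 (0 to 2). Between the time points they numbered 5 with upper-quartile factors, a mean of at least 50 counts or 2 groups only, and 6 by DESeq2 (1 to 6). Other enteroendocrine factors numbered 5 there by DESeq2, 1 of them higher (1 to 4). The causes were not tested.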

Other observations

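The 9 genes varied together to different degrees over the 9 libraries. The Pearson r of log2 CPM between pairs had a median of 0.68 over 36 pairs and ran from 0.16 to 0.90. It was highest for Neurod1 with Isl1 (0.90) and for Neurod1 with Nkx2-2 (0.90). Neurog3 had the lowest median r with the others (0.45). After group means were removed the median over pairs was 0.43, and for Neurog3 it was -0.10. The libraries share groups and depth, so these values are a description.

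Among 12916 other genes, those most like Neurod1 over the 9 libraries were Tac1 (r of 0.98), which encodes the precursor of substance P, Reg4 (0.98) and Trpa1 (0.97), an ion channel gene of enterochromaffin cells. The gene most like Isl1 was Slc18a1 (0.97), a vesicular monoamine transporter, and those most like Nkx2-2 were Gm42547 (0.98), Lrp11 (0.98) and Vwa5b2 (0.96). Rfx6 was most like Tpbg (0.97), Fev most like Apoo (0.96), Pax6 most like Slc35g1 (0.97), Insm1 most like Gm6560 (0.97), Pax4 most like Rnd1 (0.97) and Neurog3 most like Lrrc40 (0.94). No test was made of these values.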
